A study of Mus musculus with 29 samples.

Results

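The genes of 7 Wnt ligands (Wnt4, Wnt9b, Wnt11, Wnt7b, Wnt5a, Wnt2b and Wnt6) and 2 R-spondins (Rspo1 and Rspo3) were followed through 29 mouse RNA sequencing libraries of nephron progenitor cells (NPCs), the Six2-expressing cells that cap the branching ureteric bud and build the nephrons of the kidney. The 9 genes were taken by symbol from a deposited table of 23918 usable gene symbols, and all 9 were found. Fresh NPCs were sequenced in 2 libraries per age, at E11.5, E12.5 and E13.5 (days of embryonic life), at E16.5 and on postnatal day 1 (P1), and Six2-negative kidney cells in 2 libraries at E12.5. NPC lines, 1 for each of these ages but E12.5, had grown as 3-dimensional aggregates in NPSR medium and gave 1 library each at passages 20 (P20) and 80 (P80). A further 9 libraries came from E13.5 cells kept without 1 component of the medium. Heparin, BMP7, Y27632 (which blocks ROCK kinases) and CHIR (which blocks GSK3) were each withdrawn for 4 and for 8 days, and LIF for 8 days. Each such condition had 1 library, and none was labelled as complete medium. Every sample is labelled as a C57BL/6 and 129 hybrid carrying Six2-GCE, an allele in which Six2 drives a fusion of green fluorescent protein and a tamoxifen-dependent Cre. The labels do not say whether replicate libraries came from separate animals, so the p-values speak only for the spread among these libraries, part of which may be technical.

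Wnt proteins are secreted lipid-modified ligands that bind Frizzled receptors, and R-spondins bind Lgr receptors and slow the removal of Frizzled from the cell surface, so that cells answer Wnt more strongly. In the mouse kidney Wnt9b is known from the ureteric bud, from which it acts on the neighbouring progenitors, and Wnt4 is made by progenitor descendants as they turn into epithelium. Wnt11 is known from the tips of the ureteric bud, Wnt7b and Wnt6 from its epithelium, Wnt5a from embryonic mesenchyme, Wnt2b from mesenchyme around the kidney, and Rspo1 and Rspo3 from the progenitors and their surroundings.

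On the mm9 assembly used for the fresh and line libraries, Wnt4 spans 136833404 to 136855641 and Rspo1 124663674 to 124686343, both on the plus strand of chromosome 4. Wnt11 lies on chromosome 7 at 105983622 to 106003705, Wnt5a on chromosome 14 at 29317936 to 29340633 and Wnt6 on chromosome 1 at 74818466 to 74831893, also on plus strands. Wnt9b on chromosome 11 (103588678 to 103611135), Wnt7b on chromosome 15 (85365869 to 85412251), Wnt2b on chromosome 3 (104747723 to 104764627) and Rspo3 on chromosome 10 (29172915 to 29255673) lie on minus strands. The promoters of 4 genes are shown because these genes carry the main contrasts, Wnt4 and Rspo1 as the leading ligands of NPCs and Wnt11 and Wnt9b as ligands of the Six2-negative cells. Each runs from 250 bases before to 50 bases after the start of transcription, from RefSeq on GRCm38.p6, at chr4:137277385-137277684 (plus strand), chr4:124986180-124986479 (plus strand), chr7:98834862-98835161 (plus strand) and chr11:103749772-103750071 (minus strand). Capitals mark the core letters bound by TCF and LEF factors, the DNA-binding partners of beta-catenin, searched as CTTTGA and its reverse TCAAAG on both strands.
Wnt4: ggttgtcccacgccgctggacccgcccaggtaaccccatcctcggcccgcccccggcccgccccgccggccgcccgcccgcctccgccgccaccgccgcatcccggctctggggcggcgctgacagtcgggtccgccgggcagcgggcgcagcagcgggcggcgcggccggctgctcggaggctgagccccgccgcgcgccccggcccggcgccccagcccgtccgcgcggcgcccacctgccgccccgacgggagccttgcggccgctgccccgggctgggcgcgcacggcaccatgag
Rspo1: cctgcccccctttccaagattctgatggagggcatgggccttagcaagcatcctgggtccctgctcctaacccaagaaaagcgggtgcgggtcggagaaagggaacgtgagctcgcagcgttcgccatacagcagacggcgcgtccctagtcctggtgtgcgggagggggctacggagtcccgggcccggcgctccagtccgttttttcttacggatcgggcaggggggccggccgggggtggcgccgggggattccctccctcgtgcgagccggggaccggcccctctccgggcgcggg
Wnt11: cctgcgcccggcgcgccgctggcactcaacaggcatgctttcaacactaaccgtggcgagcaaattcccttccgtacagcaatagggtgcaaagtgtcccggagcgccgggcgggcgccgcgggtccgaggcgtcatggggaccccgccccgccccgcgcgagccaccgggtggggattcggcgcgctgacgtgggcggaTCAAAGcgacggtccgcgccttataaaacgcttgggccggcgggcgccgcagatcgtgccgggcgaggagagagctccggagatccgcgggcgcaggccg
Wnt9b: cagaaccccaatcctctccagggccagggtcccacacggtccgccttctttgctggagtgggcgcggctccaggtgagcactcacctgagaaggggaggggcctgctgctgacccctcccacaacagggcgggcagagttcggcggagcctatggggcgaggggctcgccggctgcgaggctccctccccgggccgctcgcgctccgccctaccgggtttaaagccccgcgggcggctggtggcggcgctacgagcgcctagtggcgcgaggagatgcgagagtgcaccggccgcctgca
The letters were found once in this Wnt11 promoter, 50 bases before the start, and not in the other 3 windows, while 16% of 32851 mouse promoters of this length hold them. Promoters were matched for 6 of the 9 genes, all but Wnt7b, Wnt5a and Rspo3. The 4 windows are rich in G and C, at 84.3% for Wnt4, 69.0% for Rspo1, 71.3% for Wnt11 and 71.7% for Wnt9b, against a median of 52.7% over all promoters. The Wnt11 window shown also holds TATAAA, present in 13.6% of promoters. Another Wnt11 window, not shown, was listed at chr7:98838595-98838894 (plus strand). It holds neither the TCF and LEF letters nor TATAAA, and its G and C share is 59.3%.

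The values are RPKM, reads scaled to transcript length and to the mapped reads of the library, and depth was estimated at 6.64 to 32.7 M reads per library, so that an RPKM of 1 stands for about 12.2 to 60.03 reads of Rspo1 and 46.6 to 229 reads of Wnt5a. Markers of the cap mesenchyme were read as a check of the labels. Six2 lay between 117 and 299 RPKM in the 8 primary libraries whose age also gave a line, between 233 and 329 in the lines, and at 7.35 and 3.45 in the Six2-negative cells, which carry the cell type label NPC all the same. In the latter, 12 of 13 cap mesenchyme markers were lower than in E12.5 NPCs. Library 1 of E16.5 and library 1 of P1 stood apart from the other primary libraries. The median of 14 ureteric bud markers was 41.4 RPKM in the first and 35.02 in the second, against 0.221 to 7.39 in the other 8 primary libraries, and their summed level was 964 and 586 RPKM against 81.5 to 203. Their 14 stroma markers also summed to 927 and 612 RPKM, against 232 to 528 in the others. Tubule markers summed to 626 and 5932 RPKM in them, against at most 435 in the others. Erythroid markers summed to 694 and 158 RPKM, against at most 346. Endothelium markers summed to 272 RPKM in E16.5 library 1, against at most 74.7 in every other primary library. The P1 line at P80 was closest to the E11.5 line at P80 (Pearson r = 0.974 over genes of log2 values) and less close to the same line at P20 (r = 0.943). Values without these 3 libraries are given where leaving one out changed a call or moved a change markedly. In the E13.5 line the Y-linked gene Eif2s3y stood at 13.9 RPKM at P20 and 0.0290 at P80. Whether line libraries were exchanged was not tested, and differences between passages are those of the libraries as labelled.

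**Figure D1:**
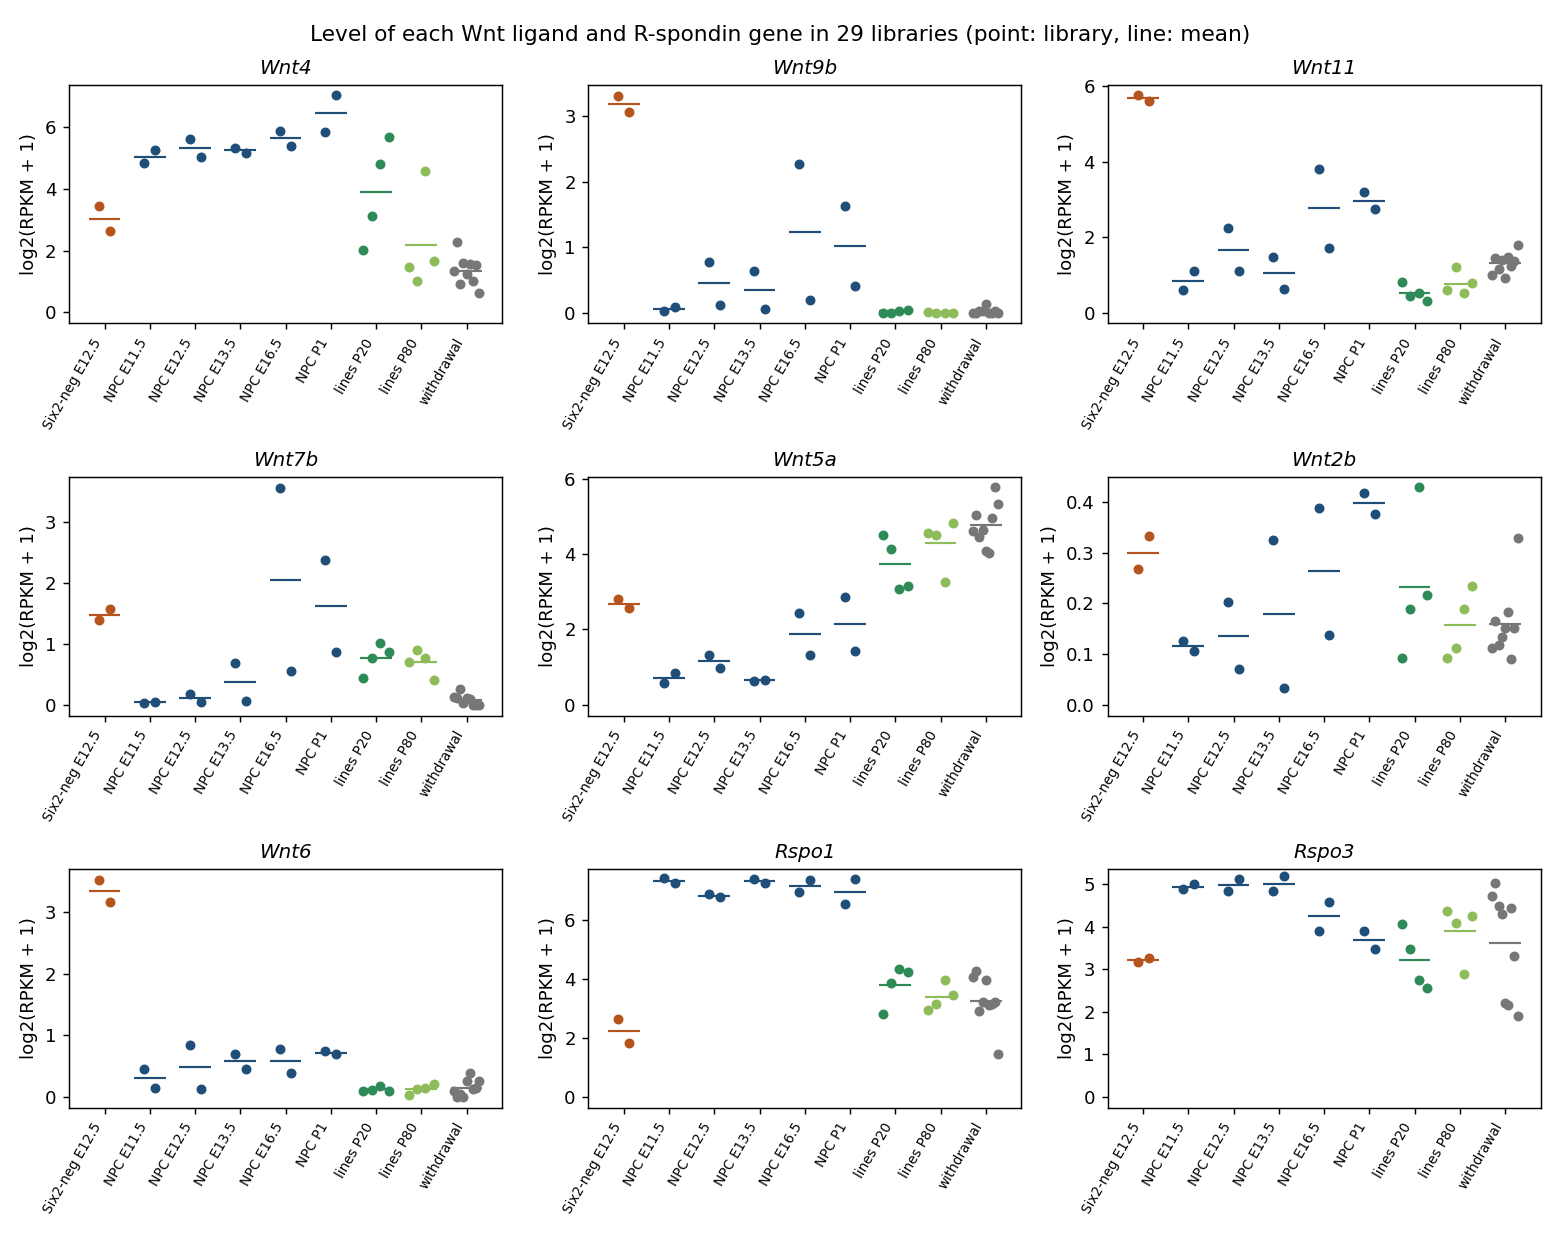
Level of each gene as log2(RPKM + 1) (vertical axis) by group (horizontal axis), 1 point per library and a line at the group mean. Among the 20 poly(A) libraries, Rspo1 separates fresh NPCs (91.1 to 170 RPKM) from Six2-negative cells and lines (2.55 to 19.1 RPKM), Wnt5a is highest in the lines, and Wnt9b, Wnt11 and Wnt6 are highest in Six2-negative cells. The withdrawal cultures are total RNA and are drawn for their own levels alone.

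Six2-negative cells were set against NPCs of the same age to ask which ligands belong to the progenitors and which to their neighbours. The 3 ligand genes with the highest levels in E12.5 NPCs, Rspo1, Wnt4 and Rspo3, were all lower in Six2-negative cells, and Wnt11, Wnt9b and Wnt6 were higher. In this comparison 9.28% of 13574 genes were called higher and 4.32% lower by limma on log2(RPKM + 1) at an adjusted p under 0.05. Of the 8 members that passed the filter on low values, 3 were called higher and 3 lower, and Wnt2b was not tested. Wnt6, among the 3 called higher, passed that filter only through the Six2-negative libraries. The median log2 change was 1.45 over these 8 and 0.02 over all genes.

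Rspo1, an agonist of Wnt signalling through Lgr receptors, stood at 117.5 and 107.6 RPKM in E12.5 NPCs and at 5.25 and 2.55 RPKM in Six2-negative cells. The groups were far apart, with a mean 28.9-fold lower outside the Six2-positive cells (log2 change -4.59 ± 0.32 SE, adjusted p = 0.000186). Rspo3 went the same way at a smaller scale, from 27.8 and 34.0 RPKM in NPCs to 7.91 and 8.65 RPKM (log2 change -1.77 ± 0.25, adjusted p = 0.00306). Six2-negative cells thus held more Rspo3 than Rspo1 per length of transcript, the reverse of the NPCs. Wnt4, a ligand of early nephron formation, was at 47.0 and 31.7 RPKM in NPCs and at 9.74 and 5.13 RPKM in Six2-negative cells. Its groups did not overlap (log2 change -2.29 ± 0.41, adjusted p = 0.00849), and it was no longer called when E12.5 library 1 was left out (-2.01, adjusted p = 0.0504), nor when Six2-negative library 2 was (-1.88, adjusted p = 0.0856). In such bulk samples fewer cells of a type and less RNA per cell cannot be told apart.

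Wnt11 was the most abundant Wnt of the Six2-negative cells, at 53.5 and 47.9 RPKM against 3.71 and 1.15 RPKM in E12.5 NPCs. Both Six2-negative libraries were above every NPC library of any age (log2 change 4.02 ± 0.64, adjusted p = 0.00516), though the adjusted p was 0.0538 without E12.5 library 2, with a log2 change of 3.45. Wnt9b stood at 8.94 and 7.35 RPKM in Six2-negative cells and at 0.712 and 0.0835 RPKM in E12.5 NPCs (log2 change 2.74 ± 0.64, adjusted p = 0.0235). Leaving out any 1 of these 4 libraries kept the log2 change between 2.41 and 3.07 and ended the call, at adjusted p from 0.0549 to 0.168, as did a pseudocount of 0.1 (4.41, adjusted p = 0.0664). Wnt6 showed the same order, with 10.5 and 7.99 RPKM against 0.800 and 0.0892 RPKM (log2 change 2.86 ± 0.28, adjusted p = 0.000772). Since no NPC library held 1 RPKM of Wnt6, it entered the test through its high group alone. Its p-value is therefore not independent of the filter. Wnt7b at 1.62 and 1.96 RPKM, against 0.132 and 0.0350 RPKM, had groups apart without being called (log2 change 1.36 ± 0.84, adjusted p = 0.339). Wnt5a likewise stood at 5.96 and 4.95 RPKM against 1.49 and 0.982 RPKM (log2 change 1.54 ± 0.47, adjusted p = 0.0662). Both were called when the fit held only the 4 libraries compared (adjusted p = 0.00182 for Wnt7b and 0.00261 for Wnt5a). In that fit Wnt7b passed the filter on low values only through the Six2-negative libraries. Wnt5a reached 1 RPKM in E12.5 library 1 but not in library 2, so it also needed the Six2-negative libraries to pass. Neither call is independent of the filter.

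The ureteric bud markers moved with these ligands. Of 14 markers, 4 were called higher in Six2-negative cells and none lower, led by Gata3, Ret and Emx2, and their median level was 23.2 and 15.5 RPKM in Six2-negative libraries against 1.61 and 0.364 RPKM in E12.5 NPCs. The collecting duct marker Aqp2 was listed at 0 in both Six2-negative libraries. Of 14 stroma markers, 11 were higher and none lower, led by Col1a1, Col3a1 and Col1a2, with summed levels of 1020 and 1355 RPKM against 285 and 268 RPKM. All 6 erythroid markers were higher too, with summed levels of 2430 and 5958 RPKM. The part of these populations in the ligand values was not tested. Within the primary NPCs, Wnt11, Wnt9b and Wnt7b were highest in the 2 libraries with the most ureteric bud marker RNA, as the plot of bud ligands against bud markers shows. Both libraries also held the most summed stroma, tubule and macrophage marker RNA among primary NPCs. In library 1 of E16.5 Wnt11, Wnt9b and Wnt7b reached 13.1, 3.81 and 10.7 RPKM, while library 2 of that age held 2.28, 0.144 and 0.463 RPKM. In these 2 libraries Aqp2 reached 84.7 and 98.7 RPKM. Wnt6 did not share this order, at 0.0892 to 0.800 RPKM in all 10 primary libraries with its highest value in E12.5 library 1. Wnt2b stayed at or below 0.347 RPKM in all 29 libraries, and that highest value came from the E16.5 line at P20.

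**Figure D2:**
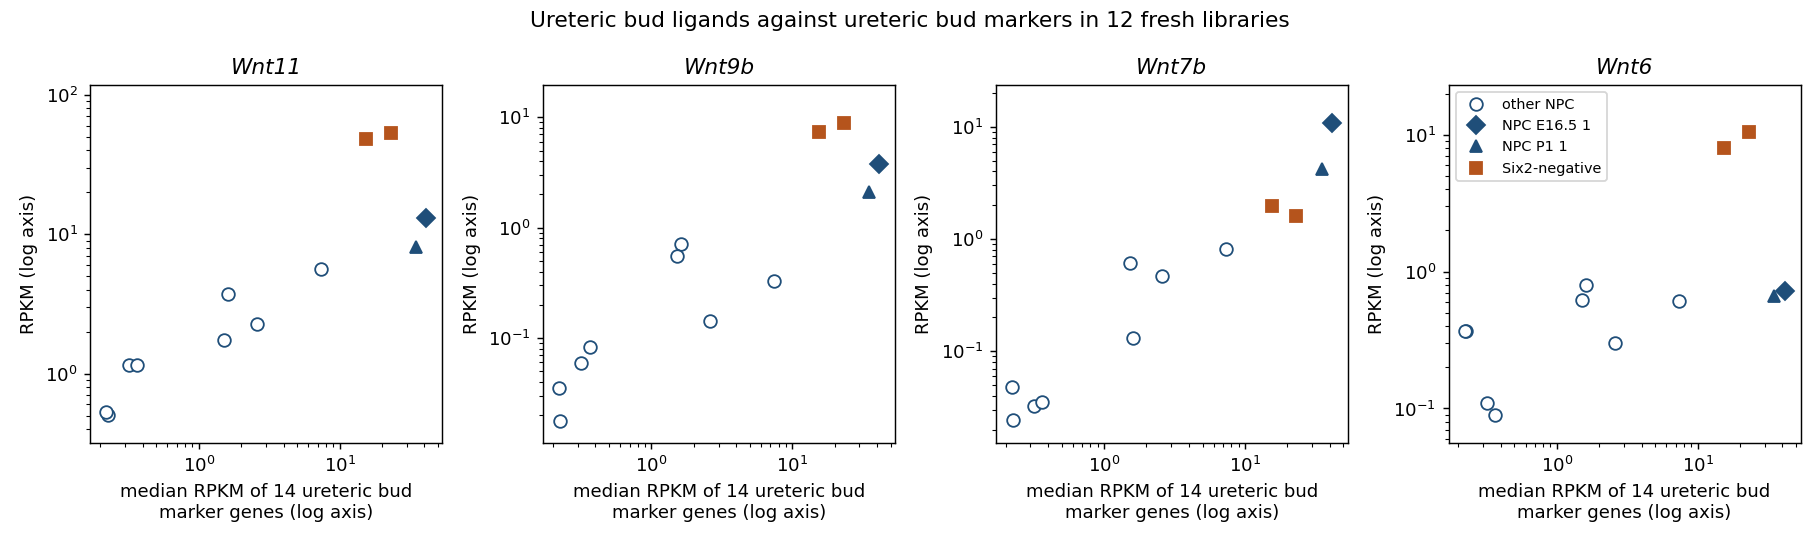
RPKM of Wnt11, Wnt9b, Wnt7b and Wnt6 (vertical axes, log) against the median RPKM of 14 ureteric bud markers (horizontal axes, log) in the 12 fresh libraries. Library 1 of E16.5 (41.4 RPKM of the markers) and library 1 of P1 (35.02 RPKM) carry the highest Wnt9b, Wnt11 and Wnt7b among NPCs, while their Wnt6 (0.718 and 0.668 RPKM) lies among the other NPC values.

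The receiving side of the pathway also differed between Six2-negative cells and NPCs. Among 15 Wnt receptors, of which 14 were tested, 5 were higher and none lower, led by Fzd1 (log2 change 2.11, adjusted p = 0.00176), Fzd8 (1.26, adjusted p = 0.00242) and Ror1 (1.18, adjusted p = 0.00522), the last a receptor for Wnt5a. Fzd1 stood at 45.7 and 61.8 RPKM in Six2-negative cells and at 10.7 and 12.4 RPKM in NPCs. Among the 5 R-spondin receptors and ligases, Rnf43, a ligase that removes Frizzled, was higher (2.24, adjusted p = 0.00879) and Lgr6 lower (-0.997, adjusted p = 0.0218). Of 14 Wnt inhibitors, 10 were tested and 6 were higher, led by Sfrp1 (2.197, adjusted p = 0.0129), Dkk3 (2.02, adjusted p = 0.00433) and Dkk1 (1.73, adjusted p = 0.00757). Frzb, a secreted Wnt-binding protein, was the 1 inhibitor called lower (-0.72, adjusted p = 0.0442). Of the 2 genes of Wnt secretion, the carrier Wls was higher (1.29, adjusted p = 0.0442), and the acyltransferase Porcn was not called. Among 14 further Wnt and R-spondin genes, Wnt2 was higher (1.201, adjusted p = 0.0135), and Wnt9a (-0.95, adjusted p = 0.00886) and Wnt8b (-0.78, adjusted p = 0.0426) were lower.

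The 5 ages of fresh NPCs were compared to follow the ligands through kidney development. Between E11.5 and P1, Wnt4, Wnt11 and Wnt5a were called higher and Rspo3 lower, while Rspo1 was not called. Over all genes, 17.5% were higher and 17.7% lower, and of the 8 members tested 3 were higher and 1 lower. Whether the shares differ was not tested. The median log2 change was 1.19 over these 8 and 0.04 over all genes. The F test over all 5 ages called 24.5% of genes and, of the members, Rspo3 alone (adjusted p = 0.0183). Without the filter on low values Wnt4, Wnt11 and Wnt5a were no longer called (adjusted p of 0.0515, 0.0586 and 0.0711). Quantile scaling changed the share of the P1 calls that were higher from 49.7% to 37.3%. Without E16.5 library 2 the F test also called Wnt11 (adjusted p = 0.0133), Wnt7b (0.0122) and Wnt5a (0.0466), without E16.5 library 1 Wnt11 (0.0417), and without P1 library 2 Wnt5a (0.0179).

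Rspo3 was at 28.4 and 31.0 RPKM at E11.5, 27.8 and 34.0 at E12.5 and 27.4 and 35.4 at E13.5. It stood at 13.9 and 23.0 RPKM at E16.5 and at 13.9 and 10.1 RPKM at P1. The libraries of the 3 youngest ages overlapped one another and lay above both later ages, which also overlapped. From E11.5 to P1 the log2 change was -1.26 ± 0.25 (adjusted p = 0.00730), and it stayed called without any 1 of the 12 libraries. Rspo1 was the most abundant ligand gene per length at every age, at 170.4 and 150.8 RPKM at E11.5, 117.5 and 107.6 at E12.5, 165.3 and 151.3 at E13.5, 121.7 and 164.0 at E16.5, and 91.1 and 165.1 at P1. E12.5 lay below E11.5, E13.5 and E16.5, the other neighbours in the order of means overlapped, and the ages did not differ beyond the spread of the libraries (log2 change from E11.5 to P1 -0.38, adjusted p = 0.365, and adjusted p = 0.528 in the F test). The lowest value, 91.1 RPKM, was that of P1 library 1, which stood high in ureteric bud markers.

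Wnt4 was the leading Wnt at each age. Its levels were 27.0 and 36.9 RPKM at E11.5, 47.0 and 31.7 at E12.5, 38.8 and 34.5 at E13.5, 57.5 and 40.4 at E16.5, and 56.3 and 129.2 at P1. The ages up to E13.5 overlapped one another, E16.5 lay above E13.5, and P1 overlapped E16.5 with its highest value in library 2. The log2 change from E11.5 to P1 was 1.40 ± 0.41 (adjusted p = 0.0305). The call ended without P1 library 2 (0.81, adjusted p = 0.120) and without either E11.5 library (1.19 and 1.62, with adjusted p of 0.159 and 0.0697). Markers of the renal vesicle and early nephron, where Wnt4 is known to act, were called higher at P1 in 6 of 10 genes and lower in none, and markers of later tubules in 6 of 7 tested. At P1 the tubule markers summed to 5932 RPKM in library 1 and 435 RPKM in library 2, the reverse of the Wnt4 order. The early nephron markers summed to 169 and 236 RPKM, in the same order as Wnt4. The part of either list in the Wnt4 level was not tested.

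Wnt11 was at 0.506 and 1.14 RPKM at E11.5, 3.71 and 1.15 at E12.5, 1.75 and 0.530 at E13.5, 13.1 and 2.28 at E16.5, and 8.13 and 5.67 at P1. The P1 libraries lay above those of E11.5 (log2 change 2.12 ± 0.64, adjusted p = 0.0334), a call that ended without P1 library 1 (1.89, adjusted p = 0.149) and without either E11.5 library (1.86 and 2.37, with adjusted p of 0.158 and 0.0832). Wnt5a, a ligand that mostly acts without beta-catenin, stood at 0.478 and 0.782 RPKM at E11.5, 1.49 and 0.982 at E12.5, 0.550 and 0.581 at E13.5, 4.45 and 1.504 at E16.5, and 6.27 and 1.68 at P1. Its change from E11.5 to P1 (1.44 ± 0.47, adjusted p = 0.0435) lost its call without 1 library in 9 of 12 cases and shrank to 0.72 (adjusted p = 0.258) without P1 library 1. Wnt9b and Wnt7b were under 0.9 RPKM in every primary library except the first of E16.5 and of P1, where Wnt9b was at 3.81 and 2.11 RPKM and Wnt7b at 10.7 and 4.204 RPKM. Neither was called from E11.5 to P1 (Wnt9b 0.97, adjusted p = 0.252, and Wnt7b 1.58, adjusted p = 0.164, or 0.0259 without E16.5 library 1 and 0.0265 without E16.5 library 2), nor was Wnt6 (0.41, adjusted p = 0.267). Without P1 library 1 the change was 0.36 for Wnt9b and 0.82 for Wnt7b.

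The table falls into 2 sets of libraries, since the values of its last 2 lines are shifted in 18 libraries and not in 11, and both E11.5 and P1 have 1 library in each. Within the set without the shift, P1 minus E11.5 was 1.03 for Wnt4, 2.60 for Wnt11, 2.30 for Wnt5a and -0.98 for Rspo3 on the log2 scale. Within the shifted set, which holds neither library high in bud markers, it was 1.78, 1.64, 0.59 and -1.53 in the same order. The direction of these 4 genes was thus the same in both sets. For Six2-negative cells only the set without the shift holds both groups, and there the 6 called members kept their direction, from -4.18 for Rspo1 to 4.10 for Wnt11.

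With E16.5 and P1 grouped as late and E11.5 and E13.5 as early, 15.2% of 13612 genes were higher late and 9.52% lower, so that 61.5% of the calls were higher, or 38.5% after quantile scaling. Of the 7 members tested, Wnt11 (log2 change 1.92 ± 0.38, adjusted p = 0.00895) and Wnt5a (1.34 ± 0.33, adjusted p = 0.0192) were higher and Rspo3 was lower (-1.01 ± 0.22, adjusted p = 0.0139). For each of these 3 the late and early libraries did not overlap, and the same held for Wnt4, which was not called. The share of all genes without overlap was not counted. E12.5 was in neither group, and its library 1 held 3.71 RPKM of Wnt11, above the lowest late value of 2.28 RPKM. Without both libraries high in bud markers Wnt11 stayed called, and Wnt5a (0.70, adjusted p = 0.0513) and Rspo3 (-0.95, adjusted p = 0.0593) did not. Wnt5a also lost its call without E11.5 library 1 (1.30, adjusted p = 0.0555) or E13.5 library 2 (1.34, adjusted p = 0.0512). Wnt4 (0.90, adjusted p = 0.0645), Wnt7b (1.63, adjusted p = 0.0513), Wnt9b (0.93, adjusted p = 0.103) and Rspo1 (-0.27, adjusted p = 0.307) were not called. All 3 of Wnt4, Wnt7b and Wnt9b were called without E16.5 library 2, at 1.11, 2.06 and 1.24 (adjusted p = 0.0214, 0.0112 and 0.0246). That setting called 5561 of all genes, against 3367 with every library. Wnt7b was also called without P1 library 2 (1.95, adjusted p = 0.0471), with a pseudocount of 0.1 (3.45, adjusted p = 0.0201) and with TMM scaling (1.57, adjusted p = 0.0497). With the 2 sets of the table as a term, Wnt7b (adjusted p = 0.0208) and Wnt9b (adjusted p = 0.0425) were called as well, at the same log2 changes. Wnt9b passed the filter on low values only through library 1 of E16.5 and library 1 of P1, where it was high. Wnt7b passed it only through these 2 libraries and the E16.5 line at P20, all of late origin. The calls of Wnt9b and Wnt7b here are therefore not independent of the filter.

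Wnt inhibitors made up the group of Wnt pathway genes with the most calls over these ages. From E11.5 to P1, 8 of the 10 tested (of 14 measured) were higher and none lower, led by Sostdc1 (log2 change 5.38, adjusted p = 0.00727), Frzb (2.57, adjusted p = 0.000231) and Dkk1 (2.50, adjusted p = 0.00143). Sostdc1, a secreted antagonist of BMP and Wnt signals, was at 178 RPKM in P1 library 1 and 8.65 RPKM in library 2 and listed at 0 in both E11.5 libraries. Frzb stood at 25.8 and 35.9 RPKM at P1. Among receptors, 4 of 14 tested were higher, among them Fzd6 (1.12, adjusted p = 0.0356) and Fzd1 (1.08, adjusted p = 0.0139), and Ror2 was lower (-0.78, adjusted p = 0.0179). Lgr4, a receptor of R-spondins, was higher (1.59, adjusted p = 0.00612), at 16.8 and 32.3 RPKM at P1, and so was Wls (1.90, adjusted p = 0.00601). Ureteric bud markers were higher in 6 of 14 genes and stroma markers in 9 of 14, with 1 stroma marker lower. Erythroid markers were higher in 2 of 6 genes, with a median summed level of 5.59 RPKM at E11.5 and 252 RPKM at P1. Of 8 macrophage markers none was called, and their summed level was 1149 and 109 RPKM at P1 against 67.9 and 48.0 RPKM at E11.5. The sum was 589 RPKM in E16.5 library 1 and at most 153 RPKM in the 8 primary libraries other than the first of E16.5 and of P1. The part of these cell types in the ligand values was not tested.

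**Figure D3:**
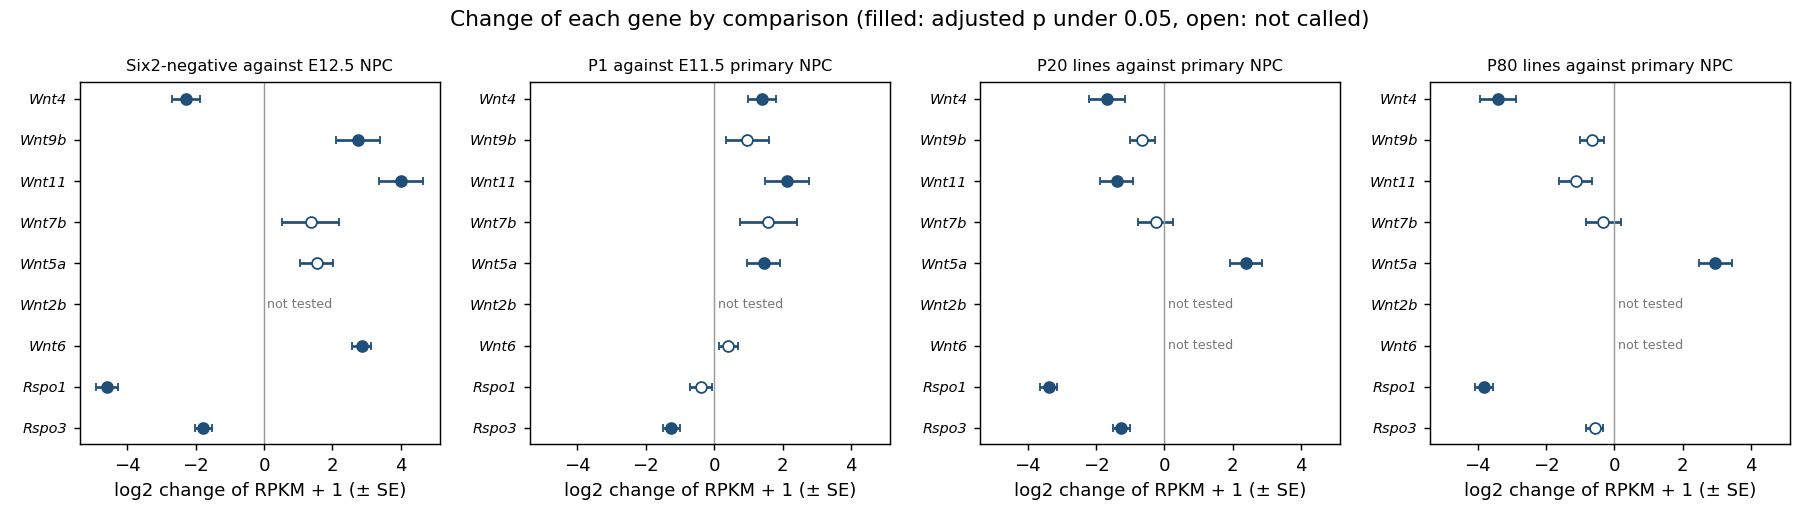
log2 change of RPKM + 1 with its SE (horizontal axis) of each gene (vertical axis) in 4 comparisons, filled where limma's adjusted p is under 0.05. Rspo1 is -4.59 in Six2-negative cells and -3.38 and -3.81 in the lines, and Wnt5a is 2.38 and 2.95 in the lines.

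The lines were set against fresh NPCs of the same ages to ask what long culture did to the ligands. Rspo1 and Wnt4 were lower and Wnt5a higher in the lines at both passages, and Rspo3 and Wnt11 were called lower at P20 alone. At P20, 14.5% of 13612 genes were called higher and 21.6% lower, and 1 of the 7 members tested was higher and 4 lower. At P80, 15.3% were higher and 24.0% lower, with 1 member higher and 2 lower. The median log2 change over all genes was -0.11 in both comparisons and near 0 after TMM scaling, which raised the share of calls that were higher from 40.2% to 54.8% at P20 and from 38.9% to 55.3% at P80. The median over the members was -1.26 at P20 and -0.66 at P80.

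Rspo1 separated the cultures from the tissue. Its levels in the lines, from the youngest to the oldest age of origin, were 5.95, 13.52, 19.1 and 17.9 RPKM at P20 and 6.74, 7.92, 14.6 and 9.87 RPKM at P80. The highest line value, 19.1 RPKM, lay far below the lowest primary value, 91.1 RPKM. The mean was 10.5-fold lower at P20 (log2 change -3.38 ± 0.26, adjusted p = 1.05e-06) and 15.1-fold lower at P80 (-3.81 ± 0.26, adjusted p = 4.22e-07). Both changes stayed called without any 1 of the 16 libraries, with lowest and highest values of -3.57 and -3.06 at P20 and -3.95 and -3.70 at P80. Within the sets of the table they were -3.26 at P20 and -3.93 at P80.

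Wnt5a went the opposite way. In the same order of lines it stood at 21.9, 16.7, 7.46 and 7.95 RPKM at P20 and at 22.8, 21.8, 8.65 and 27.4 RPKM at P80. All 8 values lay above the highest primary value, 6.27 RPKM. The log2 change was 2.38 ± 0.48 at P20 (adjusted p = 0.00190) and 2.95 ± 0.48 at P80 (adjusted p = 0.000409), called without any 1 library too and 2.10 and 3.23 within the sets. The lines held less stroma marker RNA than the primary cells, with 8 of 14 markers lower at P20 and 5 at P80, none higher, and Foxd1 at 0.118 to 0.965 RPKM. Their part in the Wnt5a level was not tested.

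Wnt4 depended on the line. It was at 3.05, 7.59, 27.0 and 49.7 RPKM at P20 and at 1.74, 1.00, 22.8 and 2.18 RPKM at P80 in the same order. Both E16.5 libraries and the P1 line at P20 came close to or fell within the primary range of 27.0 to 129.2 RPKM, and the other 5 lay far below it. At P20 the log2 change was -1.68 ± 0.52 (adjusted p = 0.0234), and at P80 -3.40 ± 0.52 (adjusted p = 0.000269). The P20 call ended without the P20 library of the E11.5 line (-1.26, adjusted p = 0.107), the E13.5 line (-1.62, adjusted p = 0.0711) or the E16.5 line (-1.71, adjusted p = 0.0594). With the 2 sets of the table as a term it was -1.56 (adjusted p = 0.0791), the same value as within the set, and with age of origin dropped the adjusted p was 0.0705. The P80 change was -3.52 within its set. Markers of the renal vesicle and early nephron, a list without Wnt4, were lower in 8 of 10 genes and higher in 1 at both passages. Their summed level had a median of 142 RPKM in the 8 primary libraries and 44.1 RPKM in the lines. Among the line libraries it was highest in the 3 with the most Wnt4, at 77.4 to 85.6 RPKM against 33.1 to 45.04 RPKM in the other 5, and its part in the Wnt4 level was not tested.

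Rspo3 stood at 15.8, 10.2, 5.67 and 4.85 RPKM at P20 and at 19.5, 16.01, 6.36 and 18.0 RPKM at P80 in the same order of lines. The primary cells of the late ages reached down to 10.1 RPKM, so that the groups overlapped when ages were pooled. Within age of origin the log2 change was -1.26 ± 0.25 at P20 (adjusted p = 0.00171) and -0.57 ± 0.25 at P80 (adjusted p = 0.0840). Without the P1 line at P80 the latter was -0.94 (adjusted p = 0.00288), and without P1 primary library 2 it was -0.67 (adjusted p = 0.0452).

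**Figure D4:**
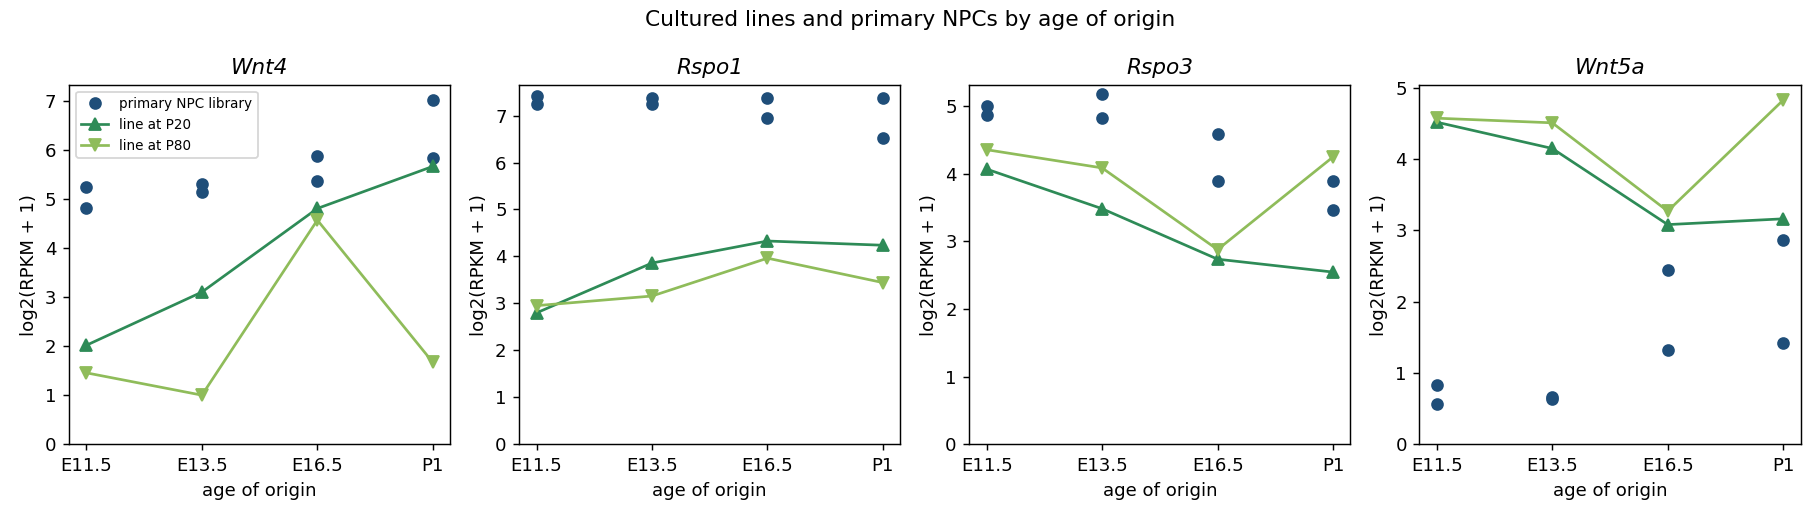
log2(RPKM + 1) of Wnt4, Rspo1, Rspo3 and Wnt5a (vertical axes) by age of origin (horizontal axes) in primary libraries (circles) and in the lines (triangles, joined within P20 and within P80). Rspo1 is lower in every line than in every primary library, and the libraries labelled P1 line hold 49.7 RPKM of Wnt4 and 7.95 RPKM of Wnt5a at P20 and 2.18 and 27.4 RPKM at P80.

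The ligands of the ureteric bud were low in the lines. Wnt9b was listed at 0 in 5 of the 8 line libraries, and the other 3 were at 0.0316 RPKM or less. Its change at P20 was not called (-0.64, adjusted p = 0.178), and it was called with the sets as a term (-1.12, adjusted p = 0.0239). Wnt9b passed the filter on low values only through primary library 1 of E16.5 and of P1, so this call is not independent of the filter. Wnt11 stood at 0.225 to 1.29 RPKM and was lower at P20 (log2 change -1.39 ± 0.49, adjusted p = 0.0413) but not called at P80 (-1.13, adjusted p = 0.0828). The P20 call of Wnt11 ended in 8 of 16 cases without 1 library, at adjusted p up to 0.150. Without both primary libraries high in bud markers it was -0.92 (adjusted p = 0.0542). Wnt6 lay between 0.0199 and 0.159 RPKM and was not tested. Wnt7b, at 0.325 to 1.03 RPKM, lay above all 6 primary libraries of E11.5 to E13.5 in 6 of the 8 line libraries and below the 2 primary libraries high in bud markers in all 8, and was not called (P20 -0.25, adjusted p = 0.725). The median of the ureteric bud markers was 0.0579 to 0.787 RPKM in the lines, with 8 to 10 of 14 markers under 1 RPKM.

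Passage and age of origin were then compared among the lines themselves. Between P80 and P20 limma called no gene, 0.00% higher and 0.00% lower, with 819 genes and 2 members at an unadjusted p under 0.05. In this fit, which also gave the comparisons with primary cells, both passages of a line counted as separate libraries. Its term for age of origin was shared with the primary libraries, so the passages were not paired within a line. The 2 members were Wnt4 (log2 change -1.72 ± 0.60, adjusted p = 0.800) and Rspo3 (0.68 ± 0.29, adjusted p = 0.800). Wnt4 was lower at P80 in all 4 lines, by between -0.24 in the E16.5 line and -3.99 in the P1 line. Rspo3 was higher at P80 in all 4, by between 0.14 in the E16.5 line and 1.70 in the P1 line. Without the library labelled P1 line at P80 the changes were -1.17 for Wnt4 and 0.32 for Rspo3. All P20 libraries fall in 1 set of the table and all P80 libraries in the other, so passage and set cannot be told apart among the lines.

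Between late and early lines, each line counted once as the mean of its passages, 0.0294% of genes were higher and 0.0147% lower, and no member was called by limma. At an unadjusted p under 0.05 stood 1158 genes. Of the members, 3 had an unadjusted p under 0.05, namely Wnt4 (log2 change 2.28 ± 0.46, adjusted p = 0.154), Rspo1 (0.80 ± 0.28, adjusted p = 0.416) and Rspo3 (-0.90 ± 0.32, adjusted p = 0.416). The P1 line at P80 lay among the early lines or beyond them for Wnt4 (2.18 RPKM), Wnt5a (27.4 RPKM), Rspo3 (18.0 RPKM) and Rspo1 (9.87 RPKM), among others. With the P1 line represented by its P20 library alone, Wnt4 (3.28, adjusted p = 0.00319) and Rspo3 (-1.32, adjusted p = 0.0331) were called, and without the P1 line Wnt4 was called (2.79, adjusted p = 0.0322). The difference between lines and primary cells in the effect of age called 0.132% of genes higher and 0.580% lower and no member, with 2446 genes and 4 members at an unadjusted p under 0.05. The nearest to a call was Wnt5a (-2.19 ± 0.56, adjusted p = 0.102), higher with age in primary cells and not in the lines. With the P1 line by its P20 library alone this difference was -2.61 for Wnt5a (adjusted p = 0.0206) and 2.39 for Wnt4 (adjusted p = 0.0378). Without E16.5 primary library 2 it was -2.42 for Wnt5a (adjusted p = 0.0247) and -2.54 for Wnt11 (adjusted p = 0.0139). The latter setting called 871 of all genes, against 97 with every library.

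Other parts of the pathway also differed between lines and fresh NPCs. Wls, which carries Wnt proteins to the cell surface, was at 52.8 to 100.5 RPKM in the lines against 9.95 to 62.8 RPKM in the 8 primary libraries (log2 change 2.16 at P20, adjusted p = 0.000172, and 1.78 at P80, adjusted p = 0.000709), and Porcn, which attaches their lipid, was lower (-0.76 and -0.86). Of 13 Wnt receptors tested, 3 were higher at P20 and none lower, led by Fzd2 (1.17, adjusted p = 9.63e-05), and 4 were higher and 2 lower at P80. Ror2, a receptor for Wnt5a, was higher at both passages (0.84 and 1.03). The R-spondin receptors Lgr5 (1.28 and 1.202) and Lgr6 (1.86 and 1.40) were higher at P20 and P80, at 1.08 to 4.57 RPKM and 1.80 to 7.45 RPKM in the lines, while Lgr4 at 5.22 to 21.1 RPKM was not called. Of 10 inhibitors tested, 3 were higher and 3 lower at P20 and 5 higher and 3 lower at P80. Frzb (2.44 and 2.61) and Dkk2 (1.501 and 2.73) were higher, and Notum (-1.83 and -1.98), Sfrp2 (-1.76 and -2.10) and Dkk1 (-1.25 and -1.37) were lower. Dkk1 and Notum are known targets of Wnt signalling as well as inhibitors of it.

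Withdrawal of medium components was described without a test, each library set against the median of the other withdrawal libraries of the same day. A gene was counted where its log2 difference reached 1 in 1 direction on every day sampled, at an RPKM of at least 1, and 5 of the 9 members reached that level. Rspo3 was lower without BMP7 and without LIF, and Rspo1 without LIF, and no member was higher. Of 12719 genes, 3.57% were higher and 2.85% lower without BMP7, and 4.11% higher and 3.07% lower without LIF on its 1 day. The shares were 1.17% and 0.472% without CHIR, 0.629% and 0.826% without heparin, and 0.802% and 0.818% without Y27632, and no member was counted for these 3 components. These cultures were labelled as total RNA and the lines as poly(A) RNA, so their levels were not compared.

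Rspo3 stood at 3.57 RPKM on day 4 and 3.43 RPKM on day 8 without BMP7, at 20.7 to 25.4 RPKM in the other 3 libraries of day 4, and at 31.6, 18.8, 8.93 and 2.72 RPKM on day 8 without heparin, Y27632, CHIR and LIF. The log2 difference was -2.29 and -1.66 without BMP7 and -1.91 without LIF. On day 8 the values of the 5 libraries were thus spread over a wide range, with the libraries without BMP7 and LIF at its lower end and that without heparin at its upper end (2.30). On day 4 the difference without heparin was 0.28. Without Y27632 it was 0.0392 on day 4 and 1.58 on day 8. Rspo1 was at 15.6, 6.60, 14.7 and 7.80 RPKM on day 4 without heparin, Y27632, BMP7 and CHIR, and at 18.1, 8.25, 7.62, 8.26 and, without LIF, 1.74 RPKM on day 8. The library without LIF was the lowest (-1.76). A difference past 1 was reached without heparin on day 8 (1.10) and without Y27632 on day 4 (-1.04), and in neither case on both days. Wnt5a was the highest of the 7 Wnt members in all 9 libraries, at 15.2 RPKM without BMP7 to 54.2 RPKM without CHIR, both on day 8. Its difference without BMP7 was -0.55 on day 4 and -1.16 on day 8. Wnt4 reached 0.544 to 3.86 RPKM and Wnt11 0.894 to 2.47 RPKM, and neither passed the limit for any component. Wnt9b was listed at 0 in 5 of these 9 libraries and stayed at or under 0.0993 RPKM, Wnt7b at or under 0.198 and Wnt6 at or under 0.306 RPKM.

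Markers of other cells and other Wnt genes differed among the same cultures. Of 13 cap mesenchyme markers, 3 were lower without BMP7 (Cited1, Sall1 and Uncx) and 1 was higher (Meox1). Cited1, a marker of uninduced NPCs, stood at 6.36 and 2.76 RPKM without BMP7 and at 45.3 to 199.6 RPKM in the other 7 libraries. Pax8, an early nephron gene, was lower without BMP7 (4.58 and 2.55 RPKM) and without LIF (4.42 RPKM), against 6.64 to 24.4 RPKM in the other 6. Of 14 stroma markers, 7 were higher without CHIR, 8 without LIF and 3 without BMP7, where 1 was lower, and 4 were lower without heparin and 2 without Y27632. Their summed level was 511 to 605 RPKM in the 5 libraries without BMP7, CHIR or LIF and 176 to 253 RPKM in the 4 without heparin or Y27632, and the part of these markers in the ligand values was not tested. Wnt5b, a close relative of Wnt5a, was higher without BMP7, at 62.9 and 68.7 RPKM against 17.0 to 39.7 RPKM in the other 7 libraries. Lgr4 was lower without BMP7, at 3.12 and 3.62 RPKM, so that both the ligand Rspo3 and this receptor were low there. Without LIF, 6 of the 10 inhibitors that reached 1 RPKM were higher, among them Dkk1 at 107 RPKM, Wif1 at 12.7 RPKM and Frzb at 91.9 RPKM. Dkk1 was also higher without CHIR, at 3.18 and 6.99 RPKM, against 0.0264 to 0.392 RPKM without heparin, Y27632 or BMP7.

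**Figure D5:**
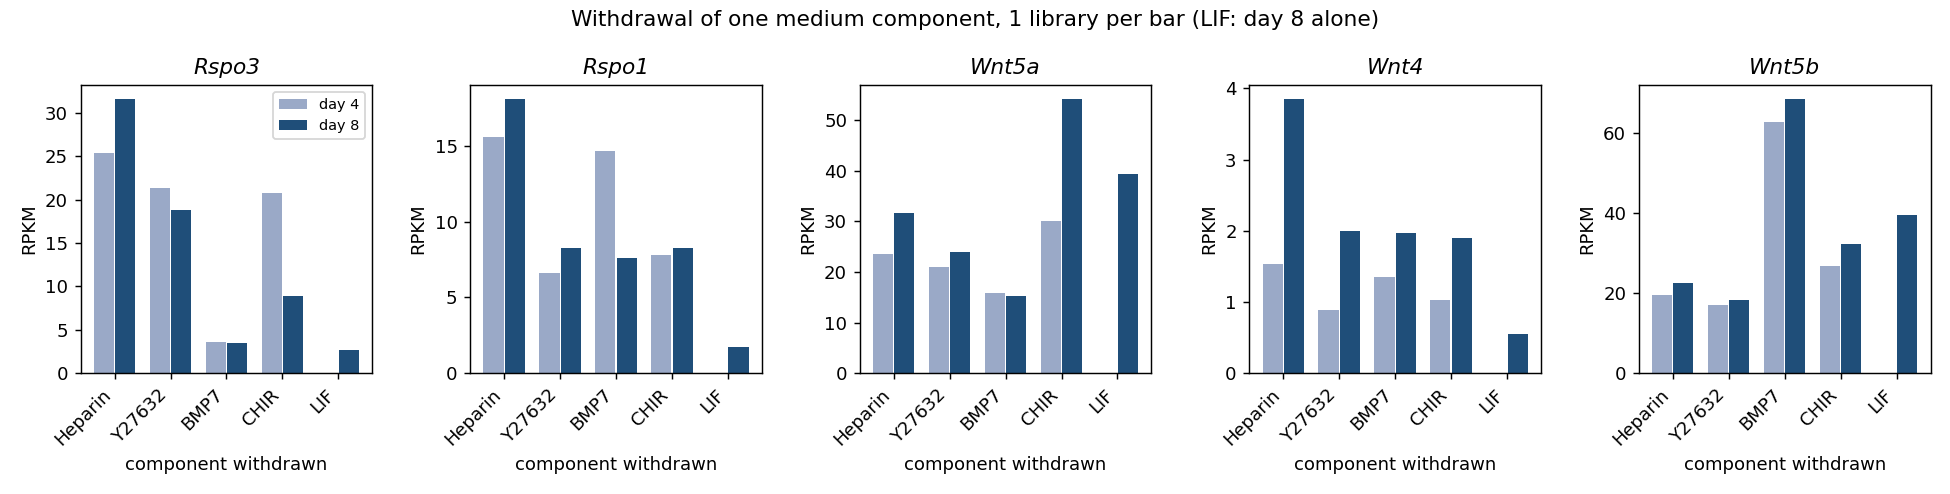
RPKM (vertical axes) of Rspo3, Rspo1, Wnt5a, Wnt4 and Wnt5b in cultures lacking 1 component (horizontal axes) for 4 or 8 days, 1 library per bar. Rspo3 is lowest without BMP7 (3.57 and 3.43 RPKM) and LIF (2.72 RPKM), and Wnt5b is highest without BMP7 (62.9 and 68.7 RPKM).

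The leading ligands differed between fresh NPCs and Six2-negative cells and varied among the lines, some of which had the same leaders as fresh NPCs. Per length of transcript, Wnt4 made up 55.1 to 82.2% of the summed RPKM of all 19 Wnt genes in the 10 primary libraries, and Wnt11 51.0 and 49.5% in Six2-negative cells. In the lines the leading Wnt was Wnt5a in the E11.5 and E13.5 lines and in the P1 line at P80 (39.3 to 56.1%), and Wnt4 in the E16.5 line and in the P1 line at P20 (49.4 to 68.5%). The leading R-spondin was Rspo1 in all 10 primary libraries, at 75.9 to 94.2% of the 4 R-spondin genes, and Rspo3 in Six2-negative cells. In the lines, Rspo3 led in 4 libraries, which were among the 5 led by Wnt5a, and Rspo1 in the other 4. Of the 14 further Wnt and R-spondin genes only Wnt5b reached 5 RPKM in all 29 libraries, at 8.07 to 16.6 RPKM in primary cells and 11.53 to 17.0 RPKM in lines.

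Over the 20 poly(A) libraries and 8633 genes with a mean of at least 5 RPKM, the gene most like Wnt4 by Pearson correlation of log2(RPKM + 1) was Pax2 (r = 0.947), followed by Igsf5 and Ogfod3. Rspo1 was most like Spock2 (r = 0.974), Eya2 (r = 0.973) and Fam189a2 (r = 0.971), and Wnt5a most like Frmd4b (r = 0.969), Fam114a1 and Adm. Wnt9b was most like Cldn3 (r = 0.971), a tight junction gene, and then Wnt11 (r = 0.966), and Wnt11 most like Pdgfra (r = 0.968) and Cldn3 (r = 0.964). For the others the highest values were 0.941 (Wnt6 with Tmtc4), 0.916 (Wnt7b with Ppap2a), 0.907 (Rspo3 with Sltm) and 0.826 (Wnt2b with Itfg3). The points share groups, depth and the order of the cell types, and the correlations are given as descriptions.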

How the data were processed

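The authors deposited 1 table of RPKM values by gene symbol, covering the 29 libraries, and 1217 NPC signature symbols that include 8 of the 9 genes (not Wnt2b). Per the submitters' processing notes the 20 fresh and line libraries went through STAR and Cufflinks with mm9; the tools for the withdrawal libraries were not given in the sources used here. RPKM makes no correction for very abundant transcripts. Left out were 27 symbols turned into dates and the 2 last lines of the table, which are shifted in 18 libraries.

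log2(RPKM + 1) was tested with limma 3.58.1 in R 4.3.3 (variance trend, two-sided, Benjamini-Hochberg). Genes entered a fit if 2 or more of its libraries reached 1 RPKM, and calls were made at an adjusted p of 0.05. The 12 fresh libraries made 1 fit; 8 primary and 8 line libraries made another, with age of origin as a term; late and early ages were compared over the 8 primary libraries and 4 line averages. Fold changes on this scale understate low genes. The fits were tested on simulated data. Depth was estimated from the spacing of low values; 40.9 to 51.5% of them lay within 0.1 of whole reads (20.0% by chance), too few for a count test. All 9 genes are described. From lists of other Wnt genes and cell markers, up to 3 called genes with the largest change are named per list and comparison; others named with levels were picked after their values were seen, and likeness names up to 3 genes. Members and lists were chosen with earlier results of these data known. Alternatives changed the pseudocount, filter, scaling, terms and libraries. Replicate numbers were not taken to pair the samples, since not every correlation between groups was over 0.1.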

Additional observations from a re-analysis of the deposited data

Results flagged for a closer look

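Of the groups of 4 to 10 libraries, the 4 lines at P80 held 2 genes in which 1 library lay far from the rest. Wnt4 was at 22.8 RPKM in the E16.5 line at P80, against 1.00 to 2.18 RPKM in the other 3 lines, a gap to the nearest of 0.946 of the whole range. It was flagged on the RPKM scale and not on log2(RPKM + 1), the scale of the tests. Wnt9b was at 0.00860 RPKM in the E11.5 line at P80 and listed at 0 in the other 3 (0.0124 on the log2(RPKM + 1) scale). For Wnt9b an RPKM of 1 stands for about 30.0 to 148 reads, so this level is that of about 1 read. With 3 of 4 values at 0 the gap is the whole range whatever the other value is. Chance gives such a gap in about 1 of 20 groups, and 36 such tests were made over 2 scales.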

How the results depend on the processing

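The counts called as reported were 1846 genes for Six2-negative cells, 4769 for P1 against E11.5, 3330 in the F test, 4916 at P20, 5351 at P80, 0 between passages, 3367 for late against early primary cells, 6 for the lines and 97 for the difference between them. Leaving out 1 library gave 400 to 2397 genes and 3 to 7 members for Six2-negative cells, 1427 to 6376 and 1 to 5 for P1 against E11.5, 1231 to 5632 and 1 to 4 in the F test, 3742 to 5821 and 3 to 5 at P20, 3887 to 6564 and 3 to 4 at P80, 0 to 6 genes between passages, 1188 to 5561 and 2 to 6 for late against early primary cells, 4 to 217 and 0 to 1 for the lines, and 8 to 871 and 0 to 2 for the difference. Signs turned under it for uncalled changes only: Rspo1 at P1 (-0.81 to 0.0427), Wnt7b at P20 (-0.45 to 0.10) and P80 (-0.59 to 0.0225), Wnt11 (-0.0849 to 0.61), Wnt7b (-0.34 to 0.16) and Wnt9b (-0.16 to 0.11) between passages, Wnt7b in late lines (-0.0625 to 0.19) and Rspo3 in the difference (-0.18 to 0.41).

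For P1 against E11.5, 1 member was called with no filter and 2 with quantile scaling or only the groups compared, which called 1275 genes. For late against early lines a pseudocount of 0.1 called 17 genes and no filter 23; for the difference, that pseudocount called 225 and quantile scaling 57. With the set as a term 5 members (Wnt7b and Wnt9b added) were called late against early in primary cells. Of these, Wnt9b passed the filter only through primary library 1 of E16.5 and of P1, where it was high. Wnt7b passed it only through these libraries and the E16.5 line at P20. Without heparin 1 member, Rspo3, was past the fold (1.02 on day 4, 2.11 on day 8) when set against the mean of the others. Signs turned for Wnt6 at P1 (-0.12, quantile), Wnt7b at P20 (0.22 with a pseudocount of 0.1, 0.0170 quantile) and P80 (0.0559 with that pseudocount, 0.31 with the set term), and, with the set term, Wnt9b (0.94) and Wnt7b (1.202) between passages. In the difference 18.6% of calls were higher, or 38.6% with quantile scaling.

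Added after the data were seen, leaving out both libraries high in bud markers called 3052 genes for Six2-negative cells, 2882 for P1, 2003 and 1 member for late against early primary cells, and 258 and 1 member for the difference; Rspo1 was then 0.0427 at P1 and 0.0473 late against early. The P1 line by its P20 library alone called 541 genes and 2 members among lines and 712 and 2 in the difference, where Rspo3 was -0.31. The cause of these changes was not tested. With the replicate number as a block, 1874 genes and 7 members (Wnt5a added, 1.54, adjusted p = 0.0448) were called for Six2-negative cells, 4842 genes for P1 and 3094 in the F test; the numbers gave correlations of -0.11 to 0.37, over 0.1 in 7 of 15 pairs of groups, and in 5 of 6 groups the number coincides with the set of the table. Groups of 2, 1 line per age and RPKM without counts limit all values.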
